A study of Mus musculus with 6 samples.

Results

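Genes of the lipid-associated macrophage state were followed in bone marrow-derived macrophages given osteosarcoma vesicles. The 8 genes, Gpnmb, Trem2, Tyrobp, Spp1, Lgals3, Cd9, Cd63 and Fabp5, were taken by symbol from the 26835 genes in the expression tables, and all 8 were found and passed the filter on low values. Wild-type marrow from BALB/C mice of 5 to 8 weeks was grown for 6 days in 10% serum with M-CSF at 25 ng/ml, the growth factor that drives macrophage differentiation. After this, the cells of 3 libraries were exposed for 24 h to 10 µg of vesicles shed by the mouse osteosarcoma line K7M2, and those of 3 libraries received PBS (phosphate-buffered saline). The libraries come from 3 independent experiments per group. Cells given vesicles of another source were not analysed here, so a difference stands for K7M2 vesicles against saline.

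Lipid-associated macrophages arise where phagocytes take up much lipid, as in obese fat tissue, atherosclerotic plaque and tumours. Their receptor TREM2 binds lipids and lipoproteins at the surface and has no signalling tail of its own. It pairs with the adaptor DAP12, encoded by Tyrobp, whose tyrosine motif recruits the kinase SYK. The other genes mark the same state: a lysosomal glycoprotein (Gpnmb), the secreted phosphoprotein osteopontin (Spp1), a galactoside-binding lectin (Lgals3), tetraspanins of the surface and of late endosomes (Cd9, Cd63) and a carrier of fatty acids in the cytosol (Fabp5).

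The receptor and marker genes of this state fell with vesicles, whereas the adaptor gene Tyrobp did not pass the test. Of the 8 genes, 7 were lower and 1 was not called (limma on log2(FPKM + 1), Benjamini-Hochberg adjusted p under 0.05), against 35.6% of the 13009 genes tested that were called lower, 18.4% higher and 54% in either direction. Scaling by median of ratios, which multiplies each library by 1 factor, gave 3454 higher and 3337 lower genes in place of 2395 and 4631, and the same number of members. A fall of at least 1 on the log2 scale was reached by 6 of the 8 and by 6.86% of all genes. The median log2 fold change of the 8 was -2.06, and that of all genes was -0.12. The same 7 genes had no overlap between the groups, with every vesicle library below every PBS library, which held for 42% of all genes tested (63.8% did not overlap in either direction). These are sums over cultures, in which fewer cells of a type and less RNA per cell cannot be told apart. FPKM, a read level scaled by exon length and library depth, was used throughout, and log2 fold changes are differences of log2(FPKM + 1).

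**Figure D1:**
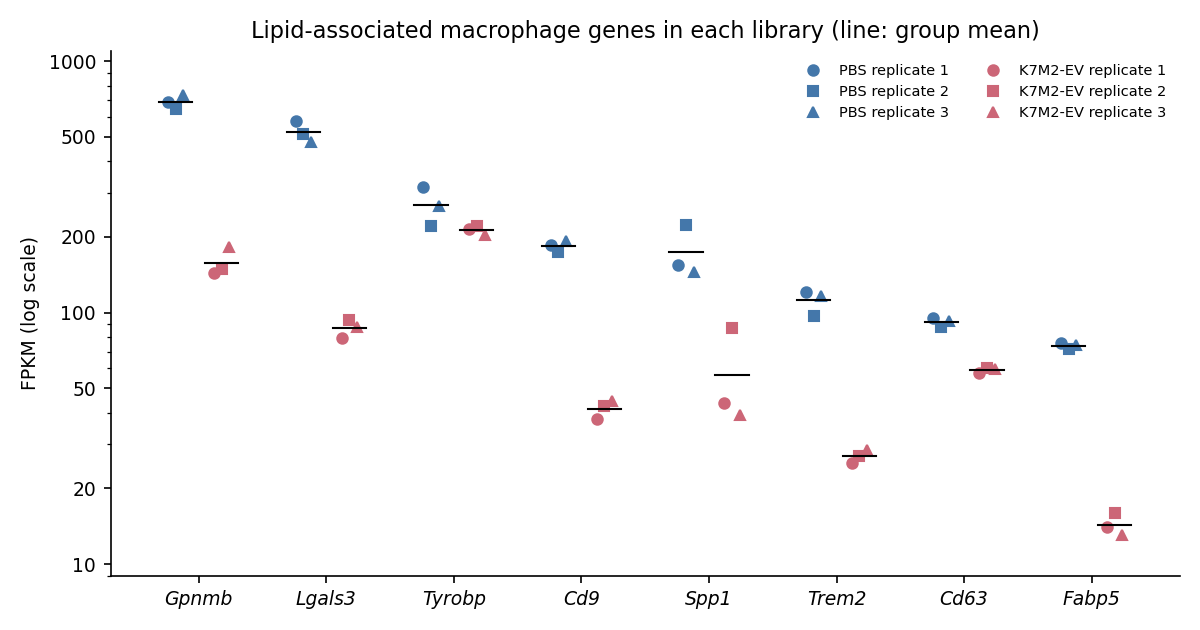
FPKM on a log axis for each of the 8 genes in the 3 PBS libraries (blue) and 3 K7M2-EV libraries (red), with symbols for replicates and a line at the group mean. Gpnmb falls from a mean of 689 to 158 FPKM, while the Tyrobp points of the groups overlap.

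Trem2, the lipid receptor gene (chr17:48346401-48354147, plus strand, GRCm38), was at 121, 96.7 and 117 FPKM in PBS replicates 1 to 3 and at 25.3, 26.9 and 28.5 FPKM in K7M2-EV replicates 1 to 3. All vesicle libraries lay far below all PBS libraries. The log2 fold change was -2.01 (SE 0.0985, adjusted p = 1.74e-05), and the mean fell from 112 ± 13.1 to 26.9 ± 1.57 FPKM (SD, n = 3 per group). Tyrobp, the adaptor gene (chr7:30413760-30417585, plus), read 317, 220.2 and 266 FPKM in the PBS libraries, and the vesicle libraries read 215, 221 and 203 FPKM. PBS replicate 2 lay within the narrow range of the vesicle libraries, and the other PBS libraries lay above it. The log2 fold change was -0.31 with a 95% interval from -0.63 to 0.00 (adjusted p = 0.086), so that a fall of up to that size is within the interval. Without PBS replicate 2 the value was -0.45 and passed the test (adjusted p = 0.0119), and so did the value with replicate 2 left out of both groups (-0.47, adjusted p = 0.0205).

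Gpnmb (chr6:49036546-49070929, plus), which encodes a glycoprotein of the lysosomal and cell membrane, was the most abundant of the 8 with PBS, at 691, 644 and 732 FPKM. With vesicles it was at 144, 149 and 182 FPKM. The groups were widely apart, and the highest vesicle library was K7M2-EV replicate 3. The log2 fold change was -2.12 (SE 0.104, adjusted p = 1.74e-05). Lgals3 (chr14:47367751-47386160, plus), which encodes galectin-3, a lectin that also gathers at damaged endosomes and lysosomes, had the largest fall of the 8, at -2.57 (SE 0.0962, adjusted p = 6.66e-06). The PBS libraries held 577, 515 and 477 FPKM, and the vesicle libraries, all far lower, held 79.0, 93.7 and 87.9 FPKM. Of all genes tested, 0.415% had a lower fold change than Lgals3.

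Cd9 (chr6:125460266-125494791, minus) encodes a tetraspanin of the plasma membrane. In PBS libraries it stood at 186, 175 and 192 FPKM, and in vesicle libraries at 37.7, 42.4 and 44.4 FPKM, with no overlap. Its log2 fold change was -2.13 (SE 0.0774, adjusted p = 6.19e-06). Cd63 (chr10:128900989-128912822, plus), the tetraspanin gene of late endosomes and lysosomes, gave 94.8, 87.9 and 92.7 FPKM after PBS and 57.6, 60.2 and 59.9 FPKM after vesicles. Both tetraspanin genes varied little between replicates, and Cd63 changed the less, by -0.62 (SE 0.0542, adjusted p = 0.000171). Both proteins are widely used as surface markers of extracellular vesicles, whereas the values here are of RNA.

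Fabp5 (chr3:10012548-10016607, plus), the fatty-acid carrier gene, had 75.7, 71.4 and 74.5 FPKM after PBS and 14.0, 16.0 and 13.1 FPKM after vesicles. The groups were far apart, with a log2 fold change of -2.29 (SE 0.0787, adjusted p = 5.37e-06). Fabp5 and Cd63 have near-identical pseudogenes with rows of their own, and the labels do not say how reads matching several places were assigned. Over 409 aligned bases the Fabp5 transcript was 98.3% identical to Gm6166, whose own row went from 364 ± 38.4 to 74.7 ± 2.81 FPKM. Gm14328, another copy, was at 46.7 ± 2.37 and 7.99 ± 0.539 FPKM. For Cd63 the copy was Cd63-ps, 98.5% identical over 812 bases, at 72.5 ± 2.23 and 45.2 ± 2.74 FPKM. The level of either gene is therefore uncertain, and these pseudogene rows fell in nearly the same proportion as the genes. With the implied reads of the copies added, an alternative chosen after seeing the data, Fabp5 had a log2 fold change of -2.30 and Cd63 of -0.63.

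Spp1 (chr5:104435118-104441050, plus), the osteopontin gene, was the most variable of the 8. Its PBS libraries held 155, 224 and 145 FPKM and its vesicle libraries 43.9, 86.5 and 39.3 FPKM. Replicate 2 was the highest library in either group, and the groups did not overlap. The log2 fold change was -1.67 (SE 0.32, adjusted p = 0.00497). The coefficient of variation was 24.7% with PBS and 46% with vesicles, against 2.97% to 18.2% with PBS and 2.47% to 13.2% with vesicles for the other genes. With the replicate number as a block the fold change was the same with a smaller error (adjusted p = 0.0005), and the call was lost with replicate 1 left out of both groups (-1.61, adjusted p = 0.0563).

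Osteopontin is also made by osteoblasts and other mesenchymal cells, and the summed transcripts of such cells moved with Spp1 between replicates. Summed over 15 mesenchymal and osteoblast markers, PBS replicates 1 to 3 held 217, 521 and 256 FPKM and K7M2-EV replicates 1 to 3 held 279.5, 758 and 293 FPKM. Replicate 2 was the highest in either group here too. Of the 15 markers, 8 were tested, 0 were higher and 1 was lower with vesicles, beside 18.4% and 35.6% of all genes. That gene, Runx2, reached 1 FPKM only with PBS and so had to differ. In each replicate number the marker sum was higher with vesicles, while Spp1 was lower. The single markers did not all follow the sum, which leans on the collagen gene Col1a1. Col1a1 went from 65.4 to 131 FPKM in replicate 1, 155 to 354 in replicate 2 and 74.3 to 128 in replicate 3. Its log2 fold change of 0.99 was not called (SE 0.489, adjusted p = 0.134). Col1a2, Col3a1, Sparc, Pdgfra, Pdgfrb, Lum and Dcn were also higher in each replicate number. Acta2 was lower in each (90.1 to 64.7, 222 to 177 and 118 to 84.6 FPKM), and so were Runx2 and Sp7. Of the osteoblast markers, Runx2 (1.75 and 0.923 FPKM), Sp7 (0.548 and 0.341 FPKM) and Alpl (0.205 and 0.71 FPKM) were also highest in replicate 2 of either group. Bglap, which encodes osteocalcin, was at no more than 0.164 FPKM in any library and at 0 in both libraries of replicate 2. Postn (2.33, 2.09 and 2.11 FPKM) and Thy1 (0, 0.0382 and 0.0556 FPKM) were not highest in PBS replicate 2. Both were highest in K7M2-EV replicate 2 among the vesicle libraries. The part of these cells in the Spp1 level was not tested. Without both libraries of replicate 2, Spp1 changed by -1.83 (adjusted p = 0.000231). Gm42793, which overlaps Spp1 on the same strand, went from 5.70 ± 2.42 to 1.06 ± 0.149 FPKM.

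**Figure D2:**
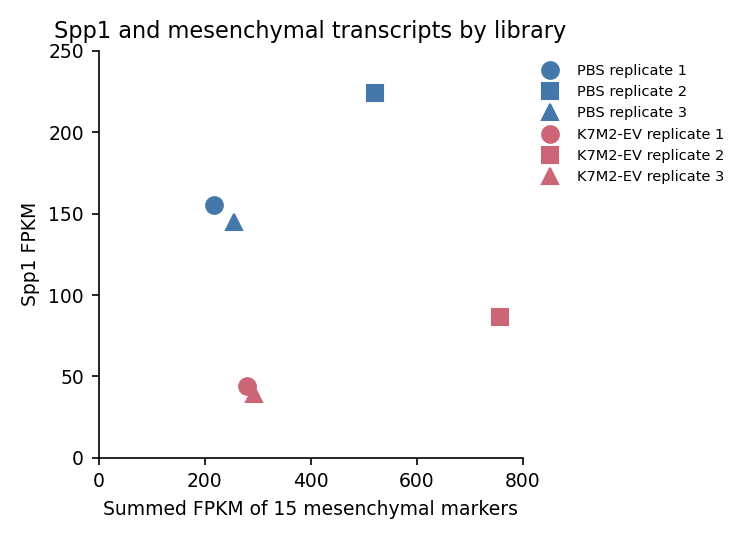
Spp1 in FPKM against the summed FPKM of 15 mesenchymal markers, 1 point per library, blue for PBS and red for K7M2-EV. The replicate 2 libraries (squares) are highest on both axes within their group, and every vesicle library lies below every PBS library in Spp1.

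Each vesicle library was also set against the PBS library of the same number. Gpnmb was left at 20.8%, 23.1% and 24.9% of the same-numbered PBS library in replicates 1 to 3. For Trem2 the shares were 21%, 27.8% and 24.3%, and for Lgals3 they were 13.7%, 18.2% and 18.4%. Cd63 kept 60.7% to 68.5%, and Tyrobp kept 67.7%, 100.4% and 76.3%. Spp1 kept 28.4%, 38.6% and 27%. Replicate 2 kept the most of Tyrobp, Spp1, Trem2, Cd9, Cd63 and Fabp5, and replicate 3 kept the most of Gpnmb and Lgals3. In each replicate number Tyrobp and Cd63 were the genes retained most.

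**Figure D3:**
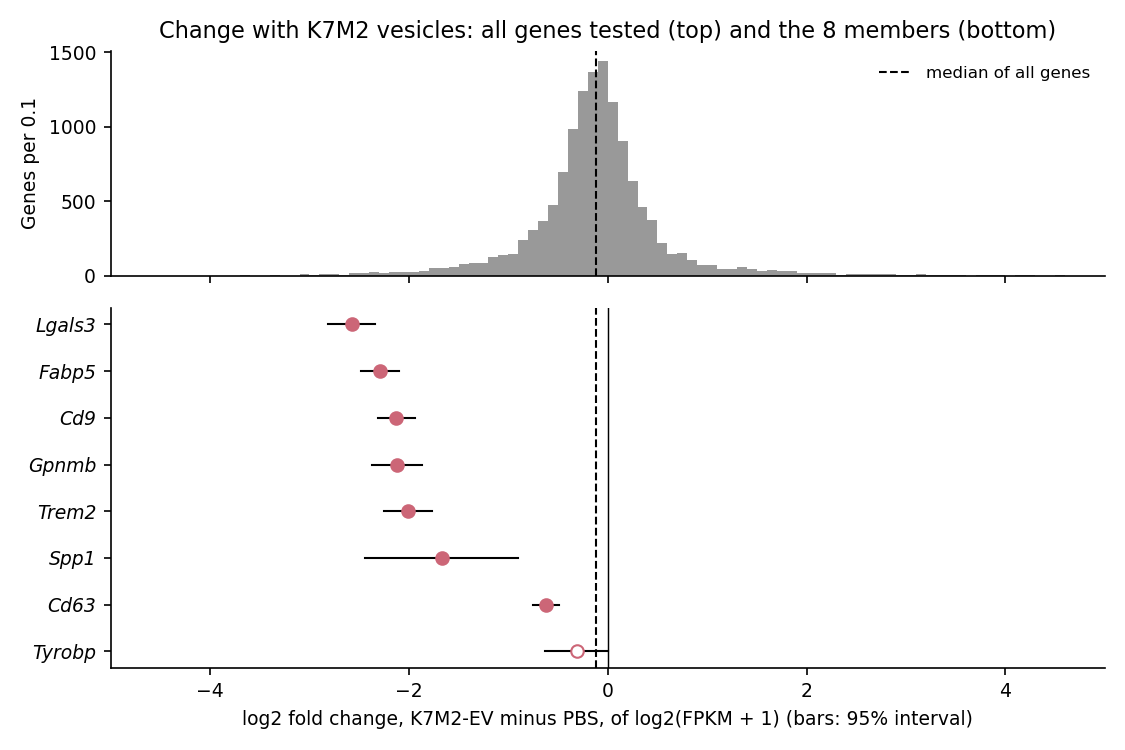
Top, the number of genes per 0.1 of log2 fold change among 13009 genes tested. Bottom, the 8 genes with their 95% intervals, filled where called: 6 lie at -1.67 or lower, Cd63 at -0.62, and the Tyrobp interval reaches 0.00.

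Summed over the 8 genes, PBS libraries held 2218, 2035 and 2097 FPKM and vesicle libraries 616, 696 and 658 FPKM. As a share of all FPKM this was 0.377%, 0.378% and 0.423% against 0.11%, 0.124% and 0.116%, and the groups did not overlap (exact two-sided permutation test, p = 0.1, the smallest that 3 against 3 allows). The makeup of the sum shifted. Gpnmb made up 32.6% of it with PBS and 24.1% with vesicles, Lgals3 went from 24.7% to 13.2%, and Tyrobp went from 12.7% to 32.4%. With PBS the order of the levels was Gpnmb, Lgals3, Tyrobp, Cd9, Spp1, Trem2, Cd63 and Fabp5, and the range of Spp1 overlapped those of Tyrobp and Cd9. With vesicles it was Tyrobp, Gpnmb, Lgals3, Cd63, Spp1, Cd9, Trem2 and Fabp5, and the range of Spp1 overlapped those of Lgals3, Cd63 and Cd9. The other neighbours did not overlap. Such an order holds on the FPKM scale, which depends on the exon length set for each gene.

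Ratios within a library, which do not depend on the library scaling, showed how unequal the falls were. There were 1.97, 1.99 and 2.07 FPKM of Cd9 for each FPKM of Cd63 with PBS, and 0.655, 0.705 and 0.741 with vesicles. On the FPKM scale, which depends on the exon length set for each gene, Cd9 was thus above Cd63 in all PBS libraries. In all vesicle libraries it was below Cd63. Implied reads are not scaled by exon length, which was 3682 bases for Cd63 and 2044 for Cd9. Counted as such unscaled reads with the Cd63-ps copy added, Cd63 was above Cd9 with PBS as well. The reads in PBS replicates 1 to 3 were then 9099, 8303 and 10346 for Cd63 and 8366, 7663 and 10080 for Cd9. Trem2 per Tyrobp, the receptor against its adaptor, was 0.381, 0.439 and 0.441 with PBS and 0.118, 0.122 and 0.140 with vesicles. On the log2 scale the ratio of Cd9 to Cd63 changed by -1.52 and that of Trem2 to Tyrobp by -1.73. For each of these, the exact two-sided permutation test gave p = 0.1, the smallest that the design allows (0.125 after adjustment over 5 ratios). Spp1 per Gpnmb overlapped between groups and differed by 0.44 on the log2 scale (exact permutation test, p = 0.6).

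**Figure D4:**
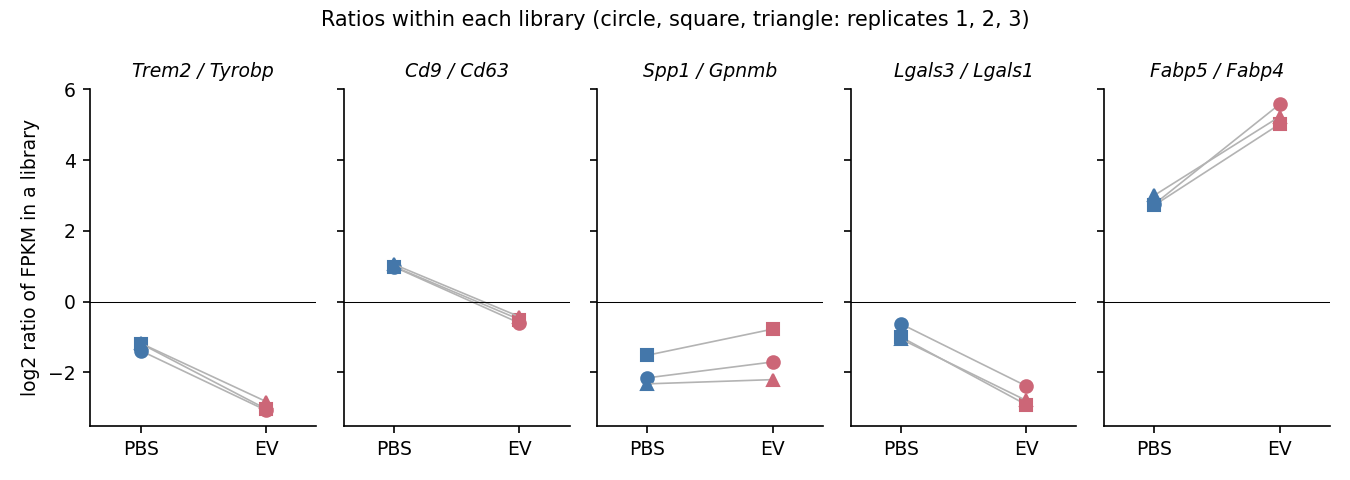
The log2 ratio of FPKM of 5 gene pairs in each library, PBS in blue and vesicles (EV) in red, with grey lines joining the same replicate number. The 3 libraries of a group lie close together for Cd9 to Cd63 and for Trem2 to Tyrobp, and the Spp1 to Gpnmb points overlap.

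Promoters are shown for 4 of the genes: Gpnmb and Trem2, which fell to a like degree, and the tetraspanin genes Cd9 and Cd63, which fell unequally. Each is the 250 bases before the RefSeq start on GRCm38.p6, 5′ to 3′ on the strand of the gene. They lie at chr6:49036268-49036517 (plus), chr17:48346151-48346400 (plus), chr6:125494761-125495010 (minus) and chr10:128909095-128909344 (plus) in that order. The Cd63 window lies inside the gene span given above, which starts at 128900989, so the bases before that start are not shown. Capitals mark matches to CATGTG (the core of the M-box bound by MITF), CACGTG (the E-box of lysosomal genes), TGANTCA (which includes the AP-1 site), GAGGAA (a PU.1 core), the DR1 repeat bound by PPAR and the NF-κB site, on either strand.
Gpnmb: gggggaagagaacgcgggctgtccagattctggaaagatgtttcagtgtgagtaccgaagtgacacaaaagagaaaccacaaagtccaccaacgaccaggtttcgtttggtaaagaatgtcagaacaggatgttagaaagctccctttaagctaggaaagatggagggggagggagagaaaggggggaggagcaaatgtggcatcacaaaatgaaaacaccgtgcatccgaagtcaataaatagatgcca
Trem2: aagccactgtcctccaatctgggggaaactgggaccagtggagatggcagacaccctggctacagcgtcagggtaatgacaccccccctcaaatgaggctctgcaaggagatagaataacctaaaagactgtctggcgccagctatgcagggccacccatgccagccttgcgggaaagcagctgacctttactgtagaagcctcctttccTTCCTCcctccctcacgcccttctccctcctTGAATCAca
Cd9: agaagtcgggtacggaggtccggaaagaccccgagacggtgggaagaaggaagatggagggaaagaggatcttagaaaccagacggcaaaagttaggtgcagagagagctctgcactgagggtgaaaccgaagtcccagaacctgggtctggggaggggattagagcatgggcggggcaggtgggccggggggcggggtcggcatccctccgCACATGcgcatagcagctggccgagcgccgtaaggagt
Cd63: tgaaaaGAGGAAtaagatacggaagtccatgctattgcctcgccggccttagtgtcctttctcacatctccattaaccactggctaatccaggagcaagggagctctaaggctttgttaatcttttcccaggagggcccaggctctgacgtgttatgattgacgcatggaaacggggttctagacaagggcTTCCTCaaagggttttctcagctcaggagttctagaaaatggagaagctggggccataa
Gpnmb had none of these letters in this window. Trem2 had TGAATCA at -9 to -3 and a PU.1 core on the minus strand, and Cd63 had 2 PU.1 cores, 1 on each strand. Cd9 had 1 match to the M-box core, at -38 to -33. Over the 32851 windows of the table, 12.3% held CATGTG, 6.02% CACGTG, 6.75% TGANTCA, 23.3% GAGGAA, 0.0335% the DR1 repeat and 0.356% the NF-κB site. The table held 6 of the 8 genes in 7 windows, of which 3 had the PU.1 core, 1 the M-box core, 1 TGANTCA and 0 the other motifs.

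Other genes of the lipid-associated and related disease-associated signatures also moved mostly downward. Of 35 genes listed and tested, 27 were lower, 4 higher and 4 not called, with a median log2 fold change of -1.12, against 35.6% lower, 18.4% higher and a median of -0.12 over all genes. This list was chosen with results of these data known, as were the lists below. Atp6v0d2, whose protein is part of the proton pump that acidifies lysosomes, went down from 190.1 ± 18.1 to 9.85 ± 1.34 FPKM. Clec7a, which encodes the fungal-glucan receptor dectin-1, dropped from 60.0 ± 16.1 to 8.94 ± 0.254 FPKM. Against this direction, Acp5, an acid phosphatase gene, rose from 8.53 ± 0.475 to 93.3 ± 19.2 FPKM, and Ctsz, a lysosomal protease gene, rose from 578 ± 38.5 to 964 ± 87.6 FPKM. Cst7, which encodes the protease inhibitor cystatin F, rose from 0.428 ± 0.0696 to 10.9 ± 3.68 FPKM. It reached 1 FPKM only with vesicles and so had to differ. Fabp4, among the 27 lower genes, reached 1 FPKM only with PBS and had to differ too. The number higher was 2 without K7M2-EV replicate 3, or with replicate 1 or 3 left out of both groups. Named after their values were seen, Apoe, the apolipoprotein E gene and a TREM2 ligand, fell from 303 ± 72.4 to 131 ± 0.491 FPKM. Lpl, the lipoprotein lipase gene, fell from 440.1 ± 21.8 to 138 ± 8.43 FPKM.

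**Figure D5:**
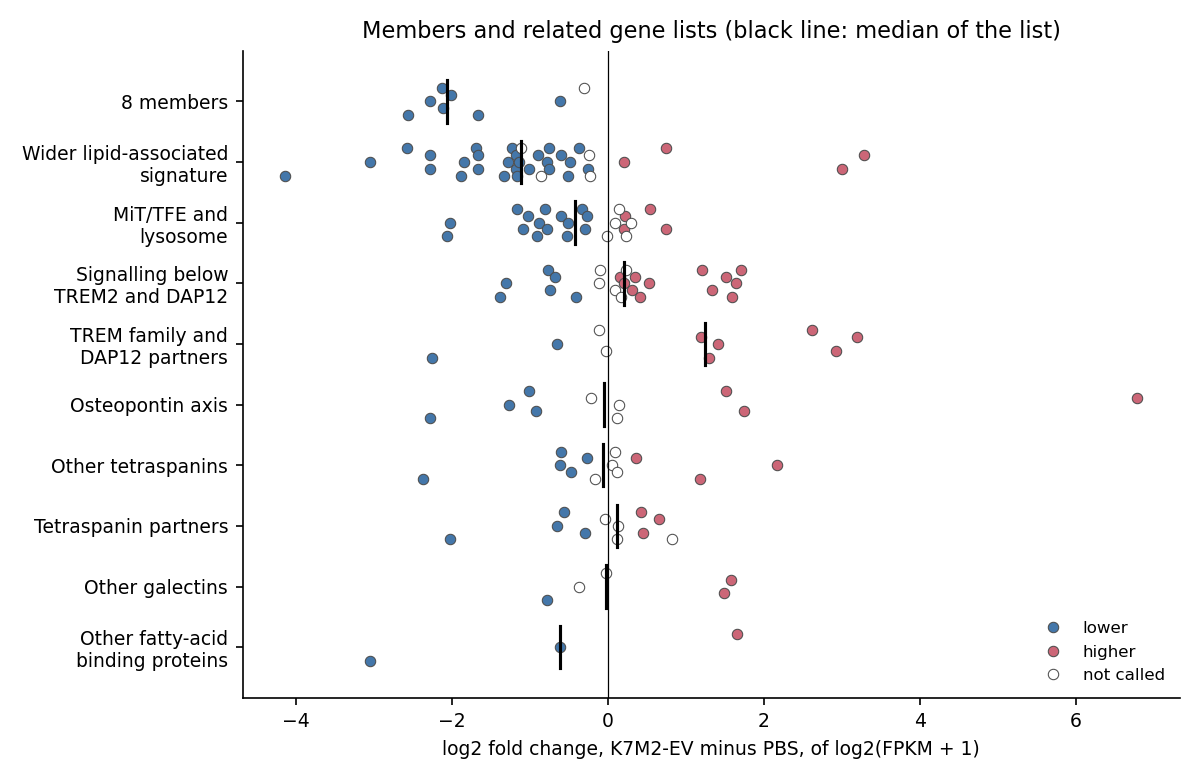
Log2 fold change of each tested gene of the 8 members and of 9 related lists, coloured by call, with a black line at the median of the list. The members and the wider signature lie mostly left of 0 (medians -2.06 and -1.12), and signalling genes lie on both sides (median 0.20).

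Genes of the signalling chain of the receptor lay on both sides of 0. Of 23 genes listed for signalling by TREM2 and DAP12, 12 were higher, 6 lower and 5 not called, with a median of 0.20. The list mixes genes of adaptors, kinases and inhibitors (Hcst, Lyn and Inpp5d among them), so the count does not tell whether signalling changed. Over all genes 18.4% were higher and 35.6% lower, with a median of -0.12. Vav1, an exchange factor gene, rose from 25.1 ± 1.96 to 84.5 ± 6.26 FPKM. The SRC-family kinase gene Lyn rose from 25.0 ± 1.21 to 79.8 ± 4.88 FPKM, and Pik3cg, a phosphoinositide 3-kinase gene, from 5.83 ± 0.328 to 19.7 ± 2.16 FPKM. Lat2, an adaptor gene, fell from 27.4 ± 1.98 to 9.85 ± 0.652 FPKM, Vav3 fell by 1.31 and Malt1 by 0.77 on the log2 scale. Syk, the kinase that binds the tyrosine motif of DAP12 (named after its values were seen), rose from 26.0 ± 2.16 to 75.8 ± 8.39 FPKM.

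Other receptors and adaptors of the same kind gave 6 higher, 2 lower and 2 not called of 10 tested among 14 with values, beside 18.4% higher and 35.6% lower over all genes. Of the higher genes, Trem3, Treml4, Pilrb1 and Pilrb2 reached 1 FPKM only with vesicles and so had to differ. With 1 FPKM required in all 6 libraries, 2 were higher, as was the case without any 1 of the vesicle libraries. Fcer1g, the gene of the Fc receptor γ chain, an adaptor with the same kind of motif, rose from 150.4 ± 10.2 to 402 ± 34.5 FPKM. Trem3 went from 0.13 ± 0.0341 to 7.59 ± 0.487 FPKM and Clec5a, a lectin receptor gene that uses DAP12, from 2.25 ± 0.489 to 6.37 ± 0.416 FPKM. Cd300lb, a lipid-binding receptor gene, fell from 113 ± 8.47 to 22.9 ± 1.92 FPKM, and Cd300ld fell by 0.65 on the log2 scale. Hcst, which encodes the adaptor DAP10, was not called (8.14 ± 1.86 and 7.35 ± 0.424 FPKM). Trem1 was at 0.0548 ± 0.0255 and 0.0617 ± 0.0204 FPKM, below the filter.

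Among the osteopontin receptors, proteases and relatives, 3 were higher, 4 lower and 3 not called of 10 tested, with a median of -0.06, where all genes gave 18.4% higher and 35.6% lower. Itgb3 (named after its values were seen), among the lower, reached 1 FPKM only with PBS and so had to differ, and 3 were lower with 1 FPKM required in all libraries. The integrin αv subunit gene Itgav fell from 11.9 ± 0.721 to 5.81 ± 0.397 FPKM and its partner gene Itgb5 from 72.5 ± 5.50 to 29.5 ± 2.27 FPKM. Itga9 and Itga5, α subunit genes of other integrins that bind osteopontin, rose by 1.75 and 1.51 on the log2 scale. Of the proteases that cleave osteopontin, Mmp9 rose from 3.42 ± 2.08 to 459 ± 42.0 FPKM, and Mmp12 fell from 309.9 ± 26.3 to 63.0 ± 6.93 FPKM. Cd44, a receptor gene for osteopontin and for GPNMB, did not pass the test (52.0 ± 5.2 and 44.3 ± 2.94 FPKM, adjusted p = 0.0753). Sdc4, which encodes the GPNMB-binding syndecan-4, did not either (37.4 ± 6.47 and 34.3 ± 5.57 FPKM). Pmel, the closest relative of Gpnmb, was at 0.0491 ± 0.0129 and 0.0421 ± 0.0598 FPKM, below the filter.

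Other tetraspanin genes moved in both directions, in shares near those of all genes. The 12 that were tested gave 3 higher, 5 lower and 4 not called, with a median of -0.06, beside 18.4% higher and 35.6% lower over all genes. Tspan13 (named after its values were seen), among the lower, reached 1 FPKM only with PBS and so had to differ. Tspan3 rose from 11.5 ± 0.172 to 55.6 ± 8.42 FPKM, Cd82 from 4.93 ± 1.49 to 12.1 ± 0.324 FPKM and Tspan31 by 0.36 on the log2 scale. Tspan14 fell by 0.60 and Cd151 by 0.48, on the log2 scale. Cd81, another tetraspanin gene of vesicles, had overlapping groups and -0.61, and lost its call in 6 of 9 fits with libraries left out, among them those without PBS replicate 2 (adjusted p = 0.0877) or 3 (0.089) or K7M2-EV replicate 1 (0.092) or 3 (0.0922). It also lost it with no filter (0.0587) and with median-of-ratios scaling (-0.48, adjusted p = 0.0561). Without PBS replicate 2, or without both libraries of replicate 1, 3 tetraspanin genes were lower, and 2 without both of replicate 3. Cd53, at 179 ± 10.3 and 185 ± 6.33 FPKM, was not called (named after its values were seen). Of 11 partners and vesicle-forming factors, 3 were higher and 4 lower, beside 18.4% and 35.6% of all genes. Itga6, an integrin subunit gene whose protein binds CD9 and CD63 complexes, fell from 13.3 ± 0.393 to 2.51 ± 0.240 FPKM. Sdcbp, the gene of the vesicle-forming adaptor syntenin, fell by 0.66 and the protease gene Adam10 by 0.29, while Igsf8, Adam17 and Itgam had 0.45, 0.42 and 0.65. Adam10 lost its call with median-of-ratios scaling (-0.15, adjusted p = 0.0605) and with replicate 3 left out of both groups (0.08). Itgam lost its call with quantile normalization (0.0562) and no filter (0.0706), and without PBS replicate 3 (0.0586), K7M2-EV replicate 1 (0.0864) or K7M2-EV replicate 3 (0.112). Of Igsf8, Adam17 and Itgam, 0 were called without both libraries of replicate 1 and 1 without both of replicate 3.

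Other genes of the galectin and fatty-acid binding protein families moved in both directions. Of 5 other galectin and galectin-binding genes tested, 2 were higher and 1 lower (18.4% and 35.6% of all genes), too few to set against that background. Lgals9 rose from 15.7 ± 0.407 to 48.8 ± 2.27 FPKM and Lgals3bp, which encodes a ligand of galectin-3, from 48.8 ± 1.12 to 139 ± 7.22 FPKM. Lgals1, the more abundant relative, had -0.78 (971 ± 70.6 and 579 ± 150.2 FPKM), a call lost without PBS replicate 3 (adjusted p = 0.0515) or both libraries of replicate 3 (0.103), and with the replicate block 2 galectin genes were lower. Lgals3 per Lgals1 was 0.647, 0.502 and 0.480 with PBS and 0.190, 0.132 and 0.144 with vesicles, without overlap. Of the 3 other fatty-acid binding protein genes tested, Fabp3 rose from 4.13 ± 0.162 to 15.2 ± 2.16 FPKM, Fabp7 fell from 8.37 ± 0.668 to 5.14 ± 0.766 FPKM and Fabp4 fell from 10.5 ± 1.03 to 0.377 ± 0.104 FPKM. Fabp4 reached 1 FPKM only with PBS and so had to differ. Without any 1 of the PBS libraries, 1 gene of this family was lower. Fabp5 per Fabp4 rose, from 6.72, 6.59 and 8.01 to 47.9, 32.4 and 37.5, although both genes fell. With vesicles Fabp4 was at only 0.292 to 0.492 FPKM. Each of these ratios had an exact permutation p of 0.1. For Fabp5 per Fabp4 this p is not read as support, since Fabp4 had to differ.

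MiT/TFE factors drive lysosomal genes, and MITF among them is known to activate Gpnmb. Genes of a list of these factors, their regulators and lysosomal targets were more often called lower than higher. The list mixes the factors with genes that restrain them and with targets, so the count does not tell whether factor activity changed. Of 24 tested, 15 were lower, 4 higher and 5 not called, with a median of -0.43, beside 35.6% lower, 18.4% higher and a median of -0.12 over all genes. Rragd (named after its values were seen), among the lower, reached 1 FPKM only with PBS and so had to differ. Fnip2 and Fnip1, whose proteins act with folliculin to hold these factors in the cytosol, fell from 49.3 ± 4.77 to 10.9 ± 0.159 FPKM and from 19.4 ± 1.33 to 8.55 ± 0.534 FPKM. Ctsd, the cathepsin D gene, fell from 1675 ± 126 to 744 ± 22.2 FPKM. Clcn7, Gaa and Atp6v0d1, all lysosomal, had 0.74, 0.54 and 0.22. Atp6v0d1 lost its call without K7M2-EV replicate 3 (adjusted p = 0.064). It also lost it without both libraries of replicate 1 (0.0971), replicate 2 (0.0877) or replicate 3 (0.0834). The number higher was 2 without K7M2-EV replicate 3 or without both libraries of replicate 2 or 3. Of the factors themselves, named after their values were seen, Mitf fell from 22.9 ± 3.40 to 11.7 ± 0.578 FPKM and Tfeb from 6.60 ± 0.169 to 2.74 ± 0.456 FPKM. Tfe3 was at 5.86 ± 0.222 and 6.91 ± 0.289 FPKM, a rise of 0.20 (adjusted p = 0.0176). This rise missed the threshold without PBS replicate 3 (0.0581) or K7M2-EV replicate 3 (0.0644). The same held without both libraries of replicate 2 (0.0813) or replicate 3 (0.167). Tfec, also a factor gene, was not called (0.986 ± 0.102 and 1.19 ± 0.203 FPKM, adjusted p = 0.228).

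Out of 6109 tested genes whose mean reached 5 FPKM, those most like a member over the 6 libraries were found by Pearson correlation of log2(FPKM + 1). With 2 well-separated groups such values mainly reflect the group difference, and they are given as a description. For Trem2 they were Antxr2, Syngr1 and Gm14636 (r from 0.9995 to 0.9998), and for Gpnmb they were Pepd, Vat1 and Specc1 (0.9996 to 0.9998). For Lgals3 they were Fabp4, Atp6v0d2 and Trio (0.9989 to 0.9994). For Spp1, which was high in replicate 2, they were Mettl9, Tob1 and Mfge8 (0.9960 to 0.9975), and for Tyrobp they were Ccdc107, Ccndbp1 and Mrpl44 (0.9640 to 0.9817). Cd9 was nearest to Fam129b, Npy and Colec12, and Cd63 to Uhrf1bp1l, Mocos and Pink1.

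The spacing of low values implied 21435300 to 25689300 reads per library. Each member then rested on 1120 to 122458 reads per library, a counting error of at most 2.99%. Macrophage markers, 10 of 10 tested, summed to 4301 to 5194 FPKM with PBS and 12825 to 14301 FPKM with vesicles. Of them 8 were higher and 1, Cd68, was lower, beside 18.4% and 35.6% of all genes. Lyz2 held most of either sum (3283 to 3991 and 9827 to 11486 FPKM), and Adgre1 went from 140.4 to 194 to a range of 1617 to 1965 FPKM. Neutrophil markers summed to 3.17 to 6.1 and 39.6 to 44.8 FPKM, of which S100a8 made up most of the latter, and Ly6g was listed at 0 in all vesicle libraries. Lymphocyte markers summed to 9.55 to 11.8 and 0.699 to 2.12 FPKM, mostly Ighm, with Cd3d, Cd79a, Ms4a1 and Klrb1c at no more than 0.0632 FPKM. Dendritic cell markers summed to 34 to 35.7 and 295 to 339.9 FPKM, nearly all from the interferon-inducible gene Bst2, with Flt3 at no more than 0.0073 FPKM. Mast cell and platelet markers summed to 30.3 to 36.7 and 128 to 157 FPKM, nearly all from Pf4 (29.9 to 36.2 and 124 to 151 FPKM), with Kit, Mcpt8, Gp9 and Itga2b at no more than 0.227 FPKM in any library. The part of other cell types in the members' levels was not tested.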

How the data were processed

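RNA of 6 cultures was sequenced, 3 per group, with groups and replicate numbers taken from the sample titles. Levels are the FPKM that the authors deposited, in a table of 26883 rows for each library. Per the submitters' processing notes the build was GRCm38, and StringTie 1.3.4b, HISAT2 2.1.0, CASAVA 1.8 and edgeR are listed without roles. The strand setting and the treatment of multi-mapped reads are not given in the sources used here. A row without a value and 47 repeated rows were dropped, leaving 26835 genes. The 13009 genes that reached 1 FPKM in 3 or more libraries were fitted by limma 3.58.1 (R 4.3.3) on log2(FPKM + 1) (statmod 1.5.0, trend and robust), with no scaling and calls at a Benjamini-Hochberg adjusted p under 0.05. Fold changes of low genes are understated on this scale.

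Exon lengths came from GENCODE M21 (GRCm38). Multiplied by length, FPKM moved in steps of 1 read, with 72.3% to 73.1% of values up to 20 reads whole within 0.1, which gave the implied reads. Pseudogenes were found with BLAST 2.17.0 (at least 95% identity over at least 200 bases). The members and lists were chosen with earlier results of these data known. From each list up to 3 called genes per direction with a mean of at least 5 FPKM are named, and all members. Genes of the receptor and adaptor, fatty-acid binding protein, galectin and GPNMB partner lists could be named whatever their result. Deviations from the group mean correlated between libraries of the same number (0.317, 0.294 and 0.209). The pairing is therefore read from the data, no label gives it, and a fit with the replicate block was an alternative. Pseudocounts, filters, scalings, plain moderation and left-out libraries were others. The fit was tested on simulated data (K7M2-EV against PBS, 12574 genes). It recovered 47% of 66 changes of 1.5-fold, 92.5% of 67 at 2-fold and 100% of 65 at 4-fold, with 6.51% of calls false. The changes were balanced in direction, every gene had the same added spread, and no replicate effect was simulated. In the data 54% of genes tested were called, so these rates need not hold there. Python 3.11.15, numpy 2.4.6, pandas 2.3.3 and matplotlib 3.10.9 made tables and plots. The genes most like Fabp5 are not reported here.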

Additional observations from a re-analysis of the deposited data

How the results depend on the processing

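The call and direction of the 8 members held in 143 of 146 recomputed values; the exceptions were Spp1 and Tyrobp with libraries left out, given above. With single libraries or replicate numbers left out, log2 fold changes ran from -2.02 to -1.46 for Spp1 and from -0.47 to -0.18 for Tyrobp, and 6 to 8 members were lower. Median-of-ratios scaling gave Trem2 -1.86, Cd63 -0.48 and Tyrobp -0.17. It also gave 5 higher partners of CD9 and CD63 and 5 higher genes of the osteopontin list, and it turned the uncalled values of Hcst (0.02) and Sdc4 (0.03). Hcst was also 0.05 without PBS replicate 1 and 0.06 without both libraries of replicate 1, and Sdc4 was 0.02 without PBS replicate 2.

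With 1 FPKM required in all libraries, 2 receptor and adaptor genes were higher and 1 fatty-acid binding protein gene was lower, since fewer genes were tested. With no filter 8 tetraspanin genes were lower. With quantile normalization 1 GPNMB partner was lower, and with the replicate block 2 galectin genes were lower; the cause was not tested. The block changed no other list count by over 1.5 times and no call of a member. Without the 20 most abundant genes in the total, the summed share of the members differed by -0.675 percentage points in place of -0.276.

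With libraries left out, the number of all genes ran from 1283 to 2390 higher and from 2186 to 4253 lower, fewer than with all libraries. Higher genes numbered 2 to 4 in the wider signature, 2 to 6 among receptors and adaptors, 0 to 4 among partners of CD9 and CD63 and 2 to 5 in the MiT/TFE list. Lower genes numbered 2 to 5 among tetraspanins, 2 to 4 among their partners, 0 to 2 among galectins, 0 to 2 among fatty-acid binding proteins and 0 to 1 among GPNMB partners. Hcst and Sdc4 each reached -0.23 at the lowest.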
